A study of Mus musculus with 50 samples.

Results

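The liver of female CD-1 mouse fetuses was compared between litters whose dams received perfluorooctanoic acid (PFOA) at 5 mg/kg/day and litters of dams on a dose of 0. The comparison holds 11 of the 50 arrays of the series: 5 control arrays and 6 arrays of the exposed group, chosen by their titles. CD-1 is an outbred stock, dams were dosed by daily oral gavage, and tissue was taken at gestational day 17.5 in every group. Dosing ran from embryonic day 1.5 to 17.5, the control dams receiving vehicle, and per the labels' protocols the fetuses were female, picked at random where a litter gave several, and matched to the dams of the maternal arrays. The rest of the series is described only where a result turns on it: fetal liver at PFOA 1 mg/kg/day (5 arrays) and maternal liver at 5 and 0 mg/kg/day (5 arrays each). The other arrays are of maternal liver at PFOA 1 mg/kg/day (5 arrays) and of GenX, hexafluoropropylene oxide dimer acid, in both tissues. They enter the fits through the estimate of spread, the fetal GenX arrays in every fetal test and all of them in the tissue test. Whole liver was measured, so fewer cells of a type and less RNA per cell cannot be told apart in any value below.

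PFOA is a perfluorinated fatty acid analogue that activates the nuclear receptor PPARα. In liver, PPARα pairs with RXR on direct repeats of a short hexamer near its target genes and raises the enzymes that burn fatty acids in mitochondria, peroxisomes and, by omega-oxidation, microsomes. Fetal liver late in gestation is at the same time a blood-forming organ, full of erythroid precursors, and its hepatocytes are only beginning to express many enzymes of adult metabolism, such as those of bile acid synthesis.

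Labels were checked against the values first. The library labelled PFOA 5 mg/kg/day replicate 6 has a title and dose entry of PFOA 5 mg/kg/day but a source name and description of GenX at 2 mg/kg/day. It correlated on average at r = 0.99381 with the other PFOA 5 mg/kg/day arrays, 0.99462 with the PFOA 1 mg/kg/day arrays and 0.99258 with the GenX 2 mg/kg/day arrays. Control replicate 3 had a log2 signal of 5.39 for Xist, the RNA that silences an X chromosome, where the other 10 arrays had 10.62 to 11.04, and 6.49 for the Y-linked Eif2s3y, where the others had 3.63 to 3.77, against its label of female. Main results are therefore also given without 1 or both of these arrays. A further array of the fetal fit, GenX 2 mg/kg/day replicate 5, has a similar mismatch, with a source name of GenX at 10 mg/kg/day. It was also kept under its title. Hepatocyte genes were present throughout, with a mean log2 signal over 12 markers of 11.43 to 11.54 in controls and 11.27 to 11.83 in exposed livers, and albumin (Alb) was at 13.31 ± 0.06 (SD, n = 5) and 13.28 ± 0.03 (SD, n = 6).

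The receptor's element was searched as the letters AGGTCA, then 1 base of any kind, then AGGTCA again, on both strands and with at most 1 mismatch, from 250 bases before to 50 bases after each gene's start in the RefSeq promoter table (GRCm38.p6). The motif was found in 6 of the 521 genes that rose and have a row in that table (1.15%), in 2 of 221 that fell (0.905%) and in 113 of all 18202 genes tested with a row (0.621%). Fabp1, which encodes the liver's fatty acid binding protein, was the only gene with a match among the 44 that rose, have a row and belong to the 4 fatty acid lists described below. Its 250 bases upstream of the start (chr6:71199629-71199878, plus strand, 5′ to 3′, match in capitals at -67 to -55, on the opposite strand) are shown as the 1 match within those lists. The matches of 4 other genes that rose, Acot12, Adh4, Ak4 and Septin9, are shown with up to 10 flanking bases for comparison; a match is only a run of letters and no binding was measured.
Fabp1: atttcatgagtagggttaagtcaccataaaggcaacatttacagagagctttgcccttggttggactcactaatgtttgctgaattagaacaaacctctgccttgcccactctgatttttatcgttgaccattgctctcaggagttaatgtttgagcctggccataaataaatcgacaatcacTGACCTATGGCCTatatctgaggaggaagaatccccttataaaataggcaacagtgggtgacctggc
Acot12 (chr13:91741401-91741433, plus strand): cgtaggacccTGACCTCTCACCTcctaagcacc
Adh4 (chr3:138415469-138415496, plus strand): tgctgggtagAGGTGAAAGGTCAgagtc
Ak4 (chr4:101419558-101419590, plus strand): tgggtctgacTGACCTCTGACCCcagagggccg
Septin9 (chr11:117331501-117331533, plus strand): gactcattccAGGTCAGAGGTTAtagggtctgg

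Of 30743 genes tested, 1042 (3.39%) differed between exposed and control fetal livers at an adjusted p under 0.05 (limma, two-sided, Benjamini-Hochberg over all genes), 718 higher (2.34%) and 324 lower (1.05%). Such genes are said below to have risen or fallen. The rises were the larger changes: 105 genes rose and 22 fell by 2-fold or more, and the median size of a change was 0.43 on the log2 scale among genes that rose and 0.39 among those that fell. A gene is called dim in a group when every array of the group had it at or below that array's 95th percentile of negative control probes (7.70 to 7.94 over the 11 arrays). By that measure 202 of the 718 rising genes and 225 of the 324 falling genes were dim in both groups, against 77.8% of all genes, so most of the falls were measured near background. Calls within the lists below stand against 3.39% of all genes and 9.02% of the genes not dim in both groups. The arrays of the exposed and control groups did not overlap for 987 genes (3.21%), 654 with all exposed arrays higher (2.13%) and 333 lower (1.08%). For a gene dim in 1 group only, a log2 difference is measured against a value below background; such genes are said to be dim, and a fold of theirs is written as at least the fold over the lowest measurable signal, where that exceeds 1. Where only some arrays of a group lay above the threshold, their number is given for the largest changes, with the fold obtained when each array is held at no less than its threshold. Without replicate 6 of the exposed group 592 genes rose (1.93%) and 271 fell (0.882%), with 826 of the calls shared, and without control replicate 3 as well 512 rose and 207 fell, with 667 shared.

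Fatty acid oxidation was the clearest change. Of the 91 measured genes in 4 lists (peroxisomal oxidation, mitochondrial oxidation, microsomal omega-oxidation and PPAR-responsive lipid handling), 55 rose and none fell, with a median difference of 0.86 on the log2 scale against -0.01 over all genes tested. All of the 22 mitochondrial members and all of the 12 omega-oxidation members measured had a positive difference. The single largest rise of any gene was that of Cyp4a14, a fatty acid omega-hydroxylase.

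**Figure D1:**
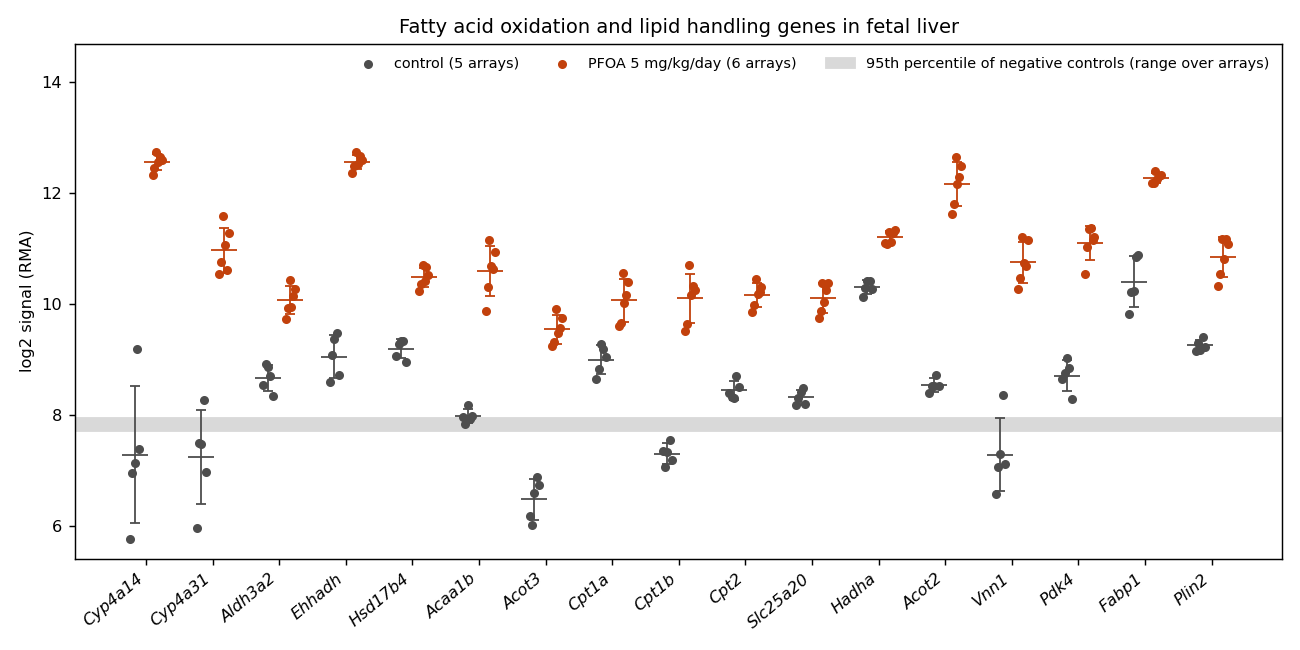
Log2 RMA signal (vertical axis) of 17 fatty acid oxidation and lipid handling genes on each fetal array, control in grey (5 arrays) and PFOA 5 mg/kg/day in orange (6 arrays), with bars at the mean ± SD and the grey band marking the 95th percentile of negative controls. The exposed arrays lay above all control arrays for every gene shown, and Cyp4a14, Ehhadh and Fabp1 were tightly grouped near 12 to 13 in exposed livers while their control values were spread.

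Omega-oxidation hydroxylates the far end of a fatty acid and feeds dicarboxylic acids to peroxisomes. Of 12 measured members 7 rose and none fell (median 1.24), also without both doubted arrays. Cyp4a14 had log2 signals of 5.76, 6.95, 7.13, 9.19 and 7.39 in control livers and 12.33 to 12.74 (median 12.58) in exposed livers. The 5 controls ranged widely, replicate 4 being highest and replicate 1 lowest, and no exposed array came near them. The difference was 5.27 ± 0.31 (SE), a 38.7-fold rise (adjusted p = 3.2e-11, limma), with only 1 of the 5 controls above the negative control threshold, and 21.3-fold with arrays held at the threshold. Cyp4a31, also above it in 1 of 5 controls, rose by 3.74, which was 8.07-fold with arrays held at the threshold. Cyp4a32 was dim in controls and rose at least 6.08-fold, while Cyp4a12a and Cyp4a12b rose 4.73-fold and 5.68-fold. These Cyp4a genes are close paralogs, and probes may read more than 1 of them. Aldh3a2, the fatty aldehyde dehydrogenase of the same route, rose from 8.67 ± 0.24 (SD, n = 5) to 10.07 ± 0.25 (SD, n = 6), and Cyp4f15, dim in controls, rose by 1.08 (at least 1.58-fold). The other Cyp4f genes measured did not pass the test, with differences of 0.04 to 0.34.

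In peroxisomes, 16 of 25 measured oxidation genes rose and none fell (median 0.67; 14 rose without both doubted arrays). Ehhadh, a bifunctional enzyme that hydrates and then oxidises the chain, had 8.59, 9.07, 9.37, 9.47 and 8.72 in controls and 12.37 to 12.73 (median 12.56) in exposed livers, a rise of 3.52 ± 0.12 (SE) or 11.5-fold (adjusted p = 9.6e-16, limma). All exposed arrays lay within 0.36 of each other. The thiolase Acaa1b rose by 2.62, 6.14-fold, from 7.98 ± 0.13 (SD, n = 5) to 10.60 ± 0.45 (SD, n = 6), and its close paralog Acaa1a by 1.37. Hsd17b4, the other bifunctional enzyme, rose by 1.29, and the thioesterases Acot3 and Acot4, which release free acids from acyl-CoA, by 3.06 and 2.10. Both thioesterases were dim in controls, so their rises were at least 3.13-fold and 1.63-fold. The importer of long-chain acyl-CoA Abcd3 rose from 8.83 ± 0.19 (SD, n = 5) to 10.62 ± 0.25 (SD, n = 6), and carnitine octanoyltransferase Crot, which passes shortened chains on to mitochondria, rose by 1.45. Of other genes of branched-chain oxidation, the racemase Amacr and the thiolase Scp2 rose by 0.47 and 0.44, with overlap between groups and with calls kept in 3 and 2 of 11 fits that each left out 1 array. Acox2 (0.05), Phyh (-0.02) and Hacl1 (0.51) did not pass the test. Among the 13 measured peroxins, which build the organelle, Pex11a, a peroxisome division factor, rose at least 1.67-fold, from 6.43 ± 0.09 (SD, n = 5) to 8.63 ± 0.51 (SD, n = 6); Pex19 rose at least 1.37-fold. Pex13 rose by 0.34 and Pex26 fell by 0.24, both dim in both groups, and the fall was lost without control replicate 1. Without exposed replicate 1, or without replicate 2, 5 peroxins rose rather than 3.

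The carnitine shuttle, which carries long-chain acids into mitochondria, rose at each of its steps. Cpt1a, the outer membrane transferase of liver, had 8.65, 8.82, 9.27, 9.19 and 9.05 in controls and 9.60 to 10.56 (median 10.09) in exposed livers, a rise of 1.07 ± 0.16 (SE), 2.10-fold. Cpt1b, the isoform typical of muscle, was dim in all 5 controls (7.07 to 7.56) and reached 9.51 to 10.70 in exposed livers, a rise of at least 4.61-fold. The translocase Slc25a20 rose 3.46-fold, the inner membrane transferase Cpt2 3.30-fold (adjusted p = 4.1e-12, limma), and the carnitine importer Slc22a5, dim in controls, by 1.61 on the log2 scale (at least 1.19-fold). Of the oxidation enzymes behind them, the very long-chain dehydrogenase Acadvl rose by 1.13, the long-chain Acadl by 1.04 and the trifunctional protein subunits Hadha and Hadhb by 0.90 and 0.88. The auxiliary enzymes for unsaturated acids, Eci1 and Decr1, rose by 1.62 and 1.23. The medium- and short-chain steps differed less: Acadm rose by 0.39, a call lost without exposed replicates 3, 5 or 6 or control replicates 1, 2 or 5, Hadh rose by 0.22, and Acads (0.37) and Echs1 (0.16) did not pass the test. In the whole mitochondrial list 17 of 22 rose, as they did in number without both doubted arrays. Acot2, a mitochondrial thioesterase, had 8.40 to 8.73 in controls and 11.61 to 12.64 in exposed livers, a 12.4-fold rise; its cytosolic neighbour Acot1, above the threshold in 2 of 5 controls, rose by 3.30, which was 8.24-fold with arrays held at the threshold, and their sequences are close enough that a probe may read both.

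Of 32 measured genes for lipid handling known to respond to PPAR, 15 rose and none fell. Vnn1, a pantetheinase of coenzyme A turnover, rose by 3.46 ± 0.22 (SE), from 6.58, 7.06, 7.30, 8.36 and 7.12 in controls to 10.26 to 11.21 (median 10.70); 1 of 5 controls was above the threshold. Pdk4, the kinase that shuts pyruvate dehydrogenase and so spares glucose, had 8.64, 8.75, 9.03, 8.84 and 8.29 in controls and 10.54 to 11.37 (median 11.18) in exposed livers, a rise of 2.40 ± 0.15 (SE), 5.27-fold. Neither gene overlapped between groups. Fabp1, whose promoter is shown above, had 9.82, 10.22, 10.24, 10.85 and 10.88 in controls and 12.18 to 12.40 in exposed livers, a 3.66-fold rise (adjusted p = 1.6e-09, limma). The lipid droplet coat Plin2 rose 3.02-fold and the secreted lipase inhibitor Angptl4 at least 1.88-fold. The fatty acid transporter Cd36 did not pass the test (0.46 ± 0.15 SE, adjusted p = 0.11, limma), nor did Fgf21, a fasting hormone, which was dim in controls and ran from 5.48 to 7.90 in exposed livers (1.00 ± 0.29 SE, adjusted p = 0.057). Ppara itself did not pass the test, at 8.38 ± 0.23 (SD, n = 5) and 8.32 ± 0.26 (SD, n = 6), and of the 14 nuclear receptors and coactivators measured only Nr1i2, the xenobiotic receptor PXR, rose, by at least 1.28-fold.

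Within the exposed group the mean signals of the fatty acid lists differed between arrays. The mean log2 signal of the mitochondrial list was lowest in replicate 1 (9.74) and highest in replicate 3 (10.26), with controls at 8.85 to 9.06, and the peroxisomal list likewise ran from 8.73 in replicate 1 to 9.35 in replicate 3, with controls at 7.90 to 8.17. Replicate 3 also had the highest hepatocyte list (11.83, the other 5 at 11.27 to 11.50) and the lowest erythroid list (8.89, the others at 9.15 to 9.36). Replicate 1 had the highest stellate and mesenchymal list (8.57, the others at 7.67 to 7.93). The part these differences had in the spread of the fatty acid genes was not tested.

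**Figure D2:**
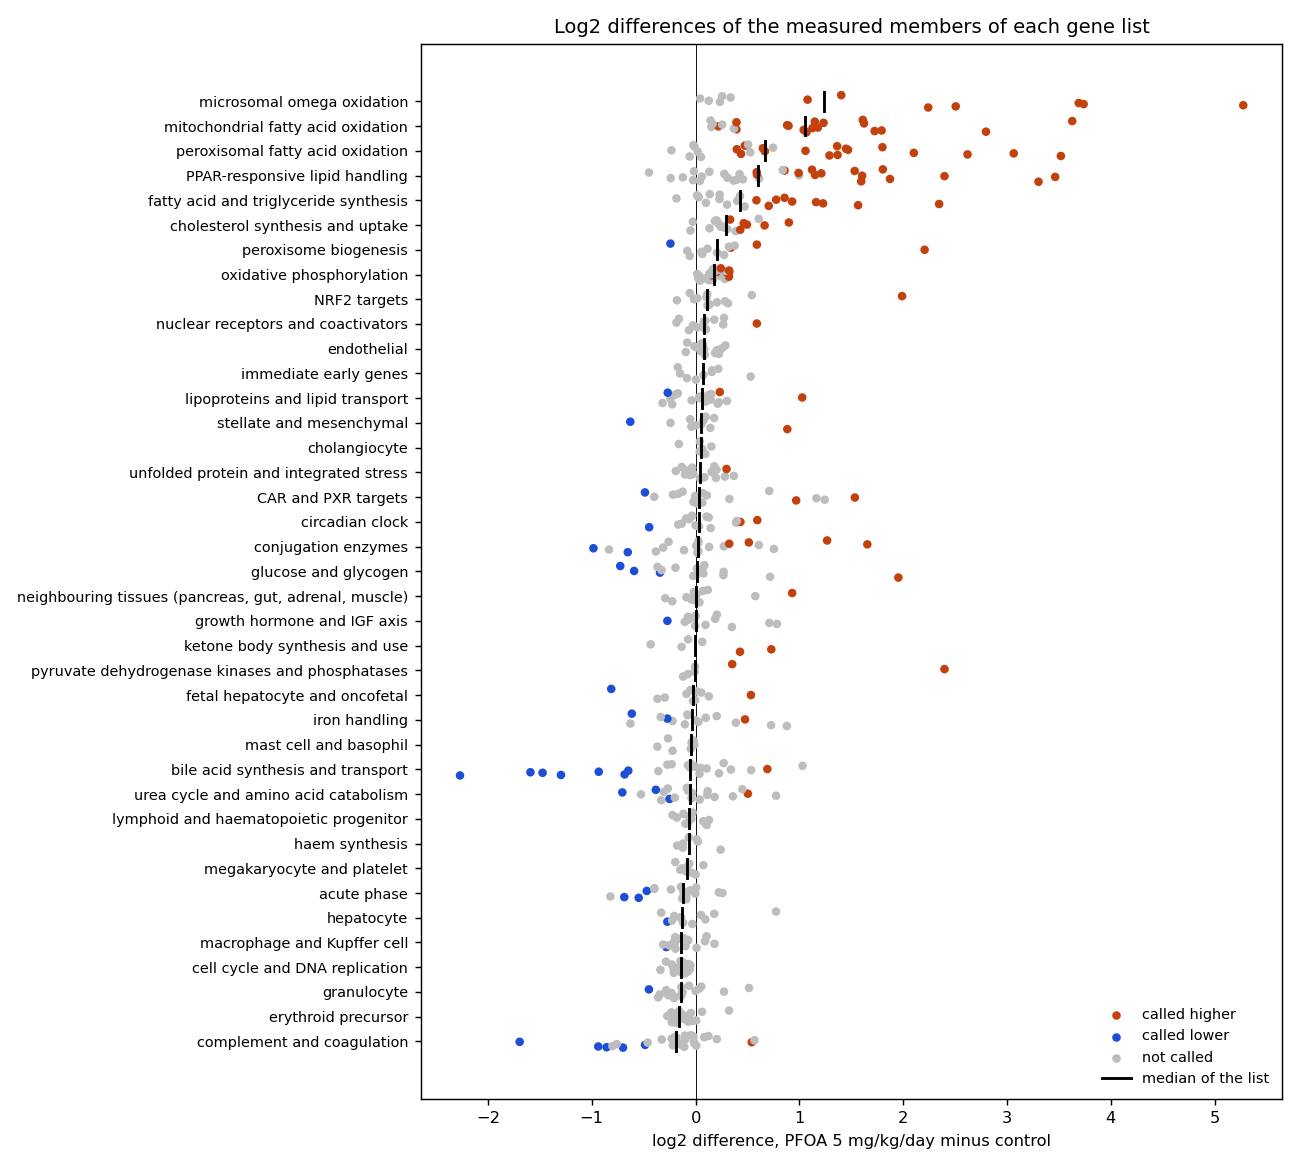
Log2 difference of PFOA 5 mg/kg/day minus control (horizontal axis) for every measured member of 39 gene lists, ordered by the list median (black bar), with genes that rose in orange, genes that fell in blue and the rest in grey. The 4 fatty acid lists hold the highest medians (0.60 to 1.24). The bile acid list has the member that fell furthest (-2.27), and the complement and coagulation list the lowest median (-0.19). Medians of the blood cell lists run from -0.16 (erythroid precursor) to -0.05 (mast cell and basophil).

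Fatty acid and sterol synthesis rose beside oxidation. Of 21 measured genes of fatty acid and triglyceride synthesis 9 rose and none fell (median 0.43), also without both doubted arrays. Me1, malic enzyme, which supplies NADPH, was dim in controls (6.93 to 7.59) and reached 9.12 to 10.08 in exposed livers, a rise of at least 3.33-fold. Scd1, the desaturase that makes oleic acid, had 9.57, 9.58, 9.49, 9.74 and 9.73 in controls and 10.35 to 11.10 in exposed livers, 2.34-fold. Elovl2 and Elovl5, which lengthen polyunsaturated acids, rose 2.23-fold and 1.91-fold, and the acetyl-CoA carboxylases Acacb and Acaca by 1.56 and 0.70, the first being dim in controls (at least 1.69-fold). Fatty acid synthase itself (Fasn, 0.47) and ATP citrate lyase (Acly, 0.30) did not pass the test. In cholesterol synthesis 6 of 18 rose, among them Hsd17b7 (1.86-fold), Lss (1.59-fold) and the regulator Srebf2 (1.26-fold), with 3 of 18 left without both doubted arrays. Among 19 lipoprotein and lipid transport genes Mttp and Lrp1 rose and Abcg8 fell (15.8%, against 3.39% of all genes), the last while dim in both groups. The rise of Lrp1, by 0.23, was kept in 2 of 11 fits that each left out 1 array (without exposed replicates 1 or 2) and the fall of Abcg8 was lost without control replicate 5; 2 of the 19 fell without exposed replicates 4 or 6. Mttp, which loads lipid onto apolipoprotein B, rose 2.04-fold, from 8.70 to 9.42 in controls to 9.69 to 10.38.

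Of 8 genes listed for ketone synthesis and use 6 were measured. Bdh1, which reduces acetoacetate to 3-hydroxybutyrate, rose 1.66-fold and Acat1, which joins acetyl-CoA units, 1.34-fold, both without overlap. The dehydrogenase Bdh2, Oxct1, which serves ketone use, and the transporters Slc16a1 and Slc16a6 did not pass the test, at -0.43 to 0.06. Of 29 nuclear-encoded respiratory chain genes 7 rose (24.1%, against 3.39% of all genes), by 0.16 to 0.32, and all 29 had a positive difference (median 0.18). That count was 3 without exposed replicate 3 or control replicate 2, 4 without exposed replicate 5, control replicate 1 or control replicate 5, and the calls of Atp5o, Cox5b, Ndufb9 and Uqcrc1 were lost when quantile normalization was repeated. The mitochondrially encoded ND2 rose 2.22-fold, from 10.77 to 11.21 in controls to 11.78 to 12.54, while the other 4 mitochondrially encoded genes with a probe (COX1, COX2, ND3 and ND6) did not pass the test, at -0.03 to 0.24.

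Bile acid synthesis moved the other way. Of 24 genes measured for synthesis and transport 7 fell and 1 rose (33.3%, against 3.39% of all genes). The number falling was the same without exposed replicate 6, and 6 without both doubted arrays. Cyp7a1, the rate-limiting enzyme of the classic pathway, had 7.92, 8.05, 8.78, 8.04 and 8.03 in controls and 4.88 to 6.72 (median 5.97) in exposed livers, all of these below the negative control threshold. It fell by 2.27 ± 0.30 (SE; adjusted p = 1.6e-05, limma), a loss of at least 1.31-fold over the lowest measurable signal. Cyp8b1, which makes cholic acid, fell 2.46-fold, from 8.36 to 8.84 in controls to 6.77 to 8.30, where 1 of 6 exposed arrays was above the threshold (1.71-fold with arrays held there). The reductases Akr1d1 and Akr1c6, which saturate the steroid ring and reduce its ketone, fell by 1.47 and 1.59, the first being dim in exposed livers (at least 1.17-fold) and the second in both groups. Cyp27a1 of the alternative pathway, above the threshold in 4 of 5 control and 1 of 6 exposed arrays, fell by 0.68 and Cyp2c70, which makes muricholic acids, by 0.65, a call kept in 2 of 11 fits that each left out 1 array. The conjugating enzyme Baat fell by 0.93 while dim in both groups, and its arrays overlapped. Abcc2, an exporter into bile, rose by 0.69, without overlap; 2 of the 24 rose without exposed replicate 1 or control replicates 2 or 3. The basolateral exporters Abcc3 (0.11) and Abcc4 (0.05), both dim in controls, did not pass the test, and neither did the uptake carrier Slc10a1 (-0.06).

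**Figure D3:**
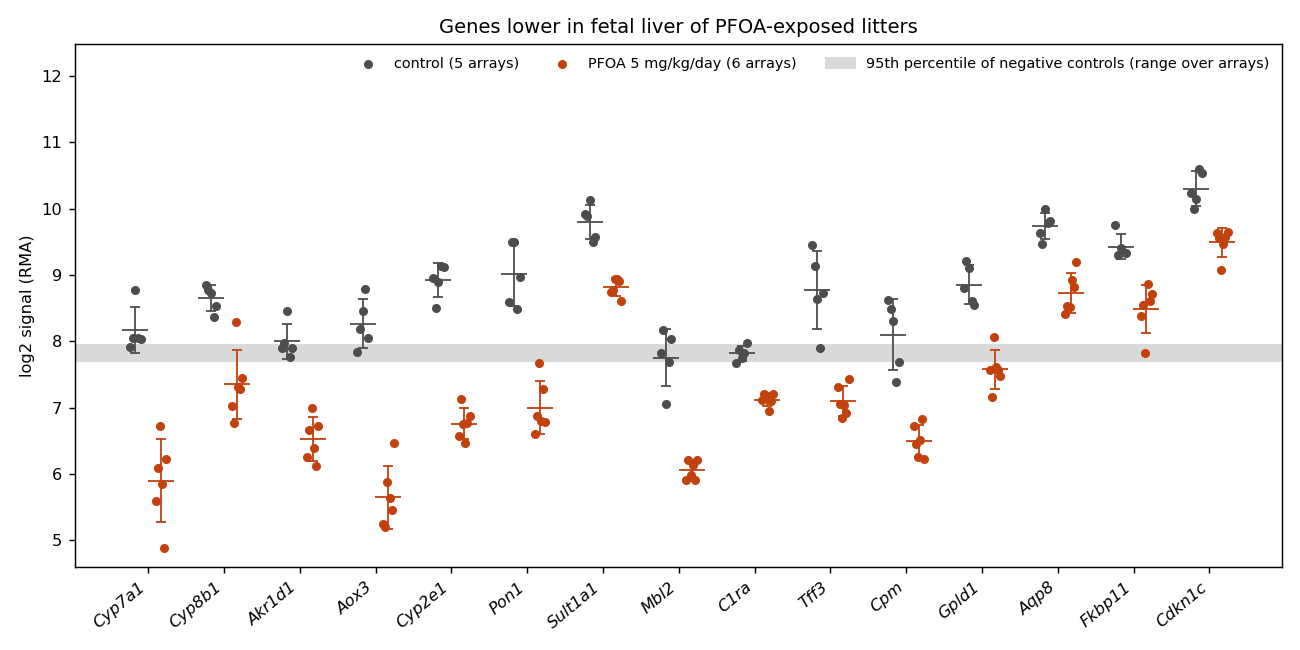
Log2 RMA signal (vertical axis) of 15 genes that fell, on each fetal array, drawn as for the rises: control in grey (5 arrays), PFOA 5 mg/kg/day in orange (6 arrays), mean ± SD, and a grey band for the 95th percentile of negative controls. Exposed arrays lay below all control arrays for every gene shown. For Cyp7a1, Aox3, Mbl2, Cyp2e1 and Pon1 they also lay below the band. Akr1d1, C1ra, Tff3 and Cpm were dim in exposed livers as well.

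Enzymes of other routes were also among the 15 largest falls. Aox3, an aldehyde oxidase, fell furthest of all genes, from 7.84, 8.19, 8.46, 8.79 and 8.05 to 5.19 to 6.47, a difference of -2.62 ± 0.26 (SE) and at least 1.40-fold. Cyp2e1, the ethanol-inducible P450, had 8.95, 8.50, 8.89, 9.14 and 9.12 in controls and 6.46 to 7.13 in exposed livers, at least 2.21-fold lower. Pon1, the paraoxonase carried on HDL, fell at least 2.35-fold, from 8.49 to 9.50 down to 6.60 to 7.67. None of these 3 genes overlapped between groups, and each call held in all 11 fits that left out 1 array. Sult1a1, a phenol sulfotransferase, fell 1.98-fold. Among 33 genes of complement and coagulation 5 fell and 1 rose (18.2%, against 3.39% of all genes, median -0.19). The falls were those of the lectin Mbl2 by 1.69, and of C4b, C1s1, C1ra and C8b by 0.94, 0.86, 0.70 and 0.49. Mbl2 and C1ra were dim in exposed livers and above the threshold in 2 and 1 of 5 controls; C1ra and its copy C1rb may share probes. The falls of C4b and C8b were kept in 2 and 3 of 11 fits that each left out 1 array, and that of C1s1 was lost without control replicate 2 or 3. The rise, of Mbl1, was lost without exposed replicates 3 or 6 or control replicates 2 or 5, and 2 of the 33 rose without control replicate 3. Between 2 and 4 of the 33 fell when any 1 array was left out (2 without control replicate 3, and 3 without exposed replicates 1, 2, 4 or 5 or control replicates 4 or 5). Clotting factors did not pass the test. Among 19 acute phase genes Saa4, Saa3 and Itih4 fell (15.8%, against 3.39% of all genes), by 0.69, 0.55 and 0.47. The fall of Saa4 was lost without exposed replicate 3 or control replicates 1, 2 or 3.

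Genes of amino acid and glucose metabolism gave mixed calls. Of 20 genes of the urea cycle and amino acid breakdown Hal, Gpt2 and Asl fell, by 0.71, 0.38 and 0.25, and Hgd rose by 0.50; Gpt2 was dim in exposed livers, the falls of Hal and Asl were kept in 5 and 4 of 11 fits that left out 1 array, and only 1 of the 20 fell without exposed replicate 1 or control replicates 4 or 5, while 2 rose without exposed replicate 1. In glucose handling Ugp2 and the glucose-6-phosphate carrier Slc37a4 fell 1.65-fold and 1.51-fold, and Pygl 1.27-fold (kept in 2 of 11). G6pc, the glucose-releasing phosphatase, rose by 1.95 ± 0.47 (SE), but with overlap: controls were at 5.99, 5.81, 7.27, 8.20 and 7.79 and exposed livers at 7.69 to 10.20. Its call was lost without exposed replicate 3 or control replicates 1 or 2, and 2 genes of this list rose without control replicate 4.

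Of 18 measured targets of the xenobiotic receptors CAR and PXR 2 rose and 1 fell (16.7%, against 3.39% of all genes), with 10 of the 18 dim in both groups. Cyp2b10, the usual CAR marker, was dim in both groups at 5.01 ± 0.10 (SD, n = 5) and 5.07 ± 0.31 (SD, n = 6). Cyp3a11 and Cyp3a44 rose 1.96-fold and 2.90-fold, yet both overlapped between groups and both calls were lost in most fits that left out 1 array, replicate 6 of the exposed group among them; none of the 18 rose without exposed replicates 3, 4, 5 or 6 or control replicates 1, 4 or 5, and 1 rose without exposed replicate 2. Cyp2a4 fell by 0.49 while dim in both groups, a call lost without exposed replicate 5 or control replicate 1. Cyp3a13 (1.24) and Cyp3a25 (1.16), both dim in controls, did not pass the test. Ephx1, a microsomal epoxide hydrolase, rose 3.97-fold, from 7.77 to 7.91 in controls to 9.44 to 10.36, with 1 of 5 controls above the threshold. It was the only 1 of 13 NRF2 targets to rise with all arrays (7.69%, against 3.39% of all genes and 9.02% of those not dim in both groups). The count was 2 without exposed replicate 1 and 3 without control replicate 5. Among 19 genes of the unfolded protein and integrated stress responses 1 rose (5.26%, near the same shares). It was the chaperone partner Dnajb9, by 0.30, a call lost without exposed replicate 4 or control replicates 2 or 5. Of the clock genes Nr1d2 and Npas2 rose and Per2 fell, each dim in both groups.

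Genes outside these lists were among the largest changes too. Lepr, the leptin receptor, was dim in controls (5.26 to 5.82) and reached 8.02 to 9.31 in exposed livers, at least 1.69-fold higher. Serpina7, the thyroxine carrier of plasma, rose at least 2.55-fold, from 5.75 to 7.14 up to 8.72 to 9.83. Abhd6, a monoacylglycerol lipase, rose at least 4.26-fold and Lpcat3, which remodels membrane phospholipids, 2.58-fold. Tff3, a mucosal peptide, and Cpm, a membrane carboxypeptidase, fell at least 1.99-fold and 1.25-fold. Gpld1, which cleaves GPI anchors, fell 2.43-fold, the water channel Aqp8 2.01-fold, and Fkbp11, a chaperone of secretory cells, 1.92-fold. The imprinted growth inhibitor Cdkn1c fell 1.76-fold, from 9.99 to 10.60 down to 9.07 to 9.65.

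Of the 149 measured genes in all 12 marker lists of cells that fetal liver or its surroundings hold, 3 rose and 5 fell. That is 5.37%, against 3.39% of all genes and 9.02% of the genes not dim in both groups. In both groups 69 of the 149 were dim. An unadjusted p under 0.05 (limma) was found for 31 of the 149, 9 higher and 22 lower, against 3958 of all 30743 genes. None of 21 erythroid markers passed the test, and none had an unadjusted p under 0.05. The mean erythroid signal over 21 genes was 9.10 to 9.50 in controls and 8.89 to 9.36 in exposed livers, and 18 of the 21 had a negative difference. None of 22 cell cycle and replication genes passed the test, and none had an unadjusted p under 0.05, though all 22 differences were negative (-0.34 to -0.05); Mki67 was at 11.67 ± 0.27 (SD, n = 5) and 11.57 ± 0.16 (SD, n = 6). The median over all genes was -0.01, and median centring moved it by less than 0.1. Of 16 macrophage markers Csf1r fell, by 0.28, and of 18 granulocyte markers Ms4a3, by 0.45, while dim in both groups; both calls were lost in most fits that left out 1 array (kept in 2 and 3 of 11). Of the 11 stellate markers Des, dim in controls, rose by 0.88 (not without control replicate 2) and Reln fell by 0.63. Of 12 hepatocyte markers transferrin (Trf) fell 1.21-fold (2 fell without exposed replicates 4 or 6), and of 11 fetal hepatocyte genes Peg3 rose by 0.53 and Cdkn1c fell (2 fell without exposed replicate 2 or control replicate 5), while Afp was at 12.98 ± 0.09 (SD, n = 5) and 12.96 ± 0.05 (SD, n = 6). Among 13 markers of pancreas, gut, adrenal and muscle Cyp17a1 rose, dim in both groups. The part any of these cell types had in the results above was not tested.

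**Figure D4:**
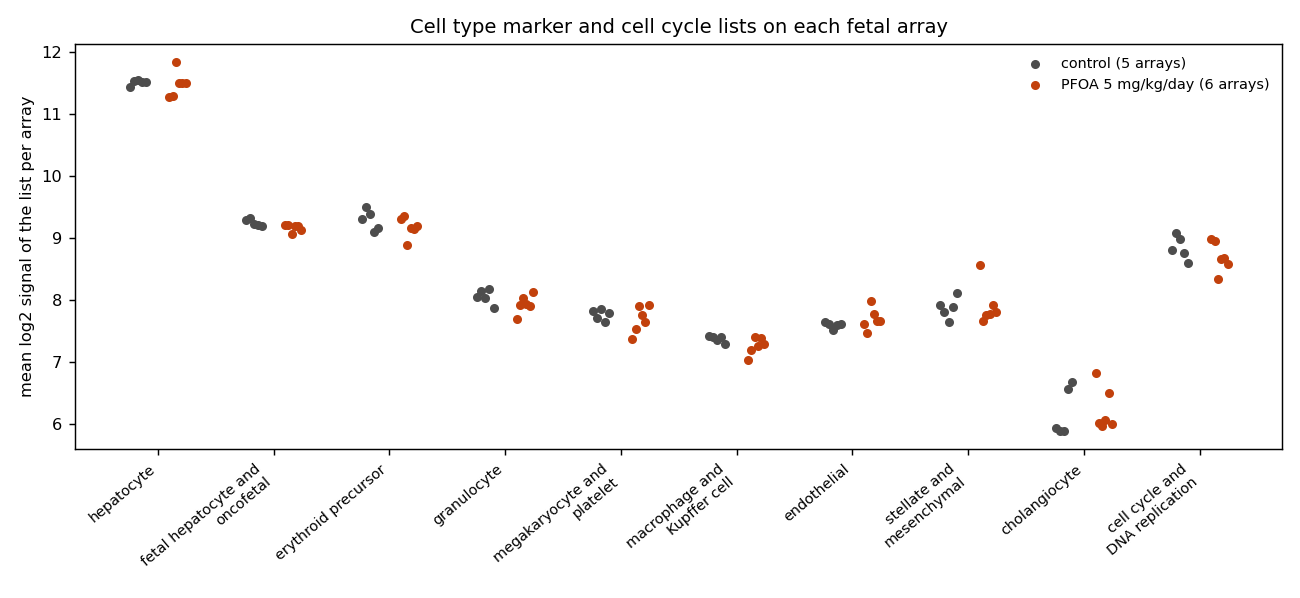
Mean log2 signal (vertical axis) of the measured members of 9 cell type marker lists and the cell cycle list on each fetal array, control in grey (5 arrays) and PFOA 5 mg/kg/day in orange (6 arrays). The groups overlap in every list shown, and exposed replicate 3 stands highest for hepatocyte markers and exposed replicate 1 highest for stellate and mesenchymal markers.

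How far the response depended on dose was tested within PFOA, at 5 against 1 mg/kg/day in fetal liver. Only 15 genes (0.0488%) differed, 4 higher (0.013%) and 11 lower (0.0358%) at the higher dose. For Cyp4a14 and Ehhadh the response at 1 mg/kg/day was nearly as large. Cyp4a14 differed from the same 5 controls by 5.14 at 1 mg/kg/day and 5.27 at 5 mg/kg/day, a difference between doses of 0.13 (95% interval -0.51 to 0.78). Ehhadh differed by 3.30 and 3.52, a difference of 0.22 (-0.03 to 0.47). List medians at 1 and 5 mg/kg/day were 0.81 and 1.05 (mitochondrial), 0.75 and 0.67 (peroxisomal), 1.04 and 1.24 (omega-oxidation) and 0.41 and 0.60 (PPAR-responsive). None of the 91 genes of the 4 fatty acid lists passed the dose test (limma), although 23 had an unadjusted p under 0.05, all 23 higher at 5 mg/kg/day. Acot2 came closest, at 0.79 (0.47 to 1.10, adjusted p = 0.053). Of the 149 genes in the marker lists 13 had an unadjusted p under 0.05 between the doses (limma), 3 higher and 10 lower. The same count over all genes is not given here, so neither this count nor the 23 can be set against a background share. Of the 718 genes that rose against control 4 differed between the doses, and of the 324 that fell 11 did. Both tests use the same arrays at 5 mg/kg/day, so a gene set apart on those arrays tends to pass both. These shares were not compared by a test. Cyp2e1 was at 8.77 ± 0.81 (SD, n = 5) at 1 mg/kg/day and 6.76 ± 0.23 (SD, n = 6) at 5 mg/kg/day, a difference of -2.01 (-2.53 to -1.50, adjusted p = 0.00044), with 8.92 ± 0.26 (SD, n = 5) in controls. Aox3 differed between doses by -1.57, Pon1 by -1.32, Akr1d1 by -1.25, Mbl2 by -0.93 and Sult1a1 by -0.71, and all of these but Sult1a1 were dim at 5 mg/kg/day, as was Cyp2e1. Cyp7a1 did not pass (-1.31, -1.92 to -0.70, adjusted p = 0.17). The genes higher at the higher dose were ND2 (1.10), Lpcat3 (0.45), Dab2 and Palmd. The count of 15 rested on single arrays: it was 5, 7 and 9 without replicates 3, 2 and 5 of the 1 mg/kg/day group, and 6, 8, 9 and 25 without replicates 5, 4, 3 and 1 of the 5 mg/kg/day group.

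The same dose in the dams gave a partly different response. The effect of 5 mg/kg/day differed between fetal and maternal liver for 1376 genes (4.48%), the effect being higher in the fetus for 543 (1.77%) and lower for 833 (2.71%). Of the 718 genes that rose in fetal liver 494 also rose in maternal liver, where 11.3% of all genes rose, and 15 fell. All 22 mitochondrial oxidation genes and 21 of 25 peroxisomal ones rose in the dams. Fabp1 rose by 1.87 in the fetus and 0.78 in the dam, a difference of 1.09 ± 0.17 (SE, adjusted p = 1.7e-05), from control levels of 10.40 and 11.87. Ehhadh also rose more in the fetus, by 0.98, as did Abhd6, by 1.35. Ces1g, a carboxylesterase, and Aldh1a7, a cytosolic aldehyde dehydrogenase, rose in the fetus from dim levels to 8.57 and 8.60, and in the dam, at 10.33 and 11.89 in controls, differed by 0.12 and 0.15. Their effects differed between tissues by 2.72 and 2.57. Fetal Pdk4 rose by 2.40 and maternal Pdk4 by 4.75, reaching 11.11 and 11.98 from controls of 8.71 and 7.23, with 1 of 5 dam controls above the threshold. Cyp4a12a and Cyp4a12b, known for expression in male liver, rose by 2.24 and 2.51 in the fetus. Both were dim in all dam controls (5.04, against a threshold of 7.38 to 7.68 over the maternal arrays) and rose at least 23.6-fold and 22.9-fold there.

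**Figure D5:**
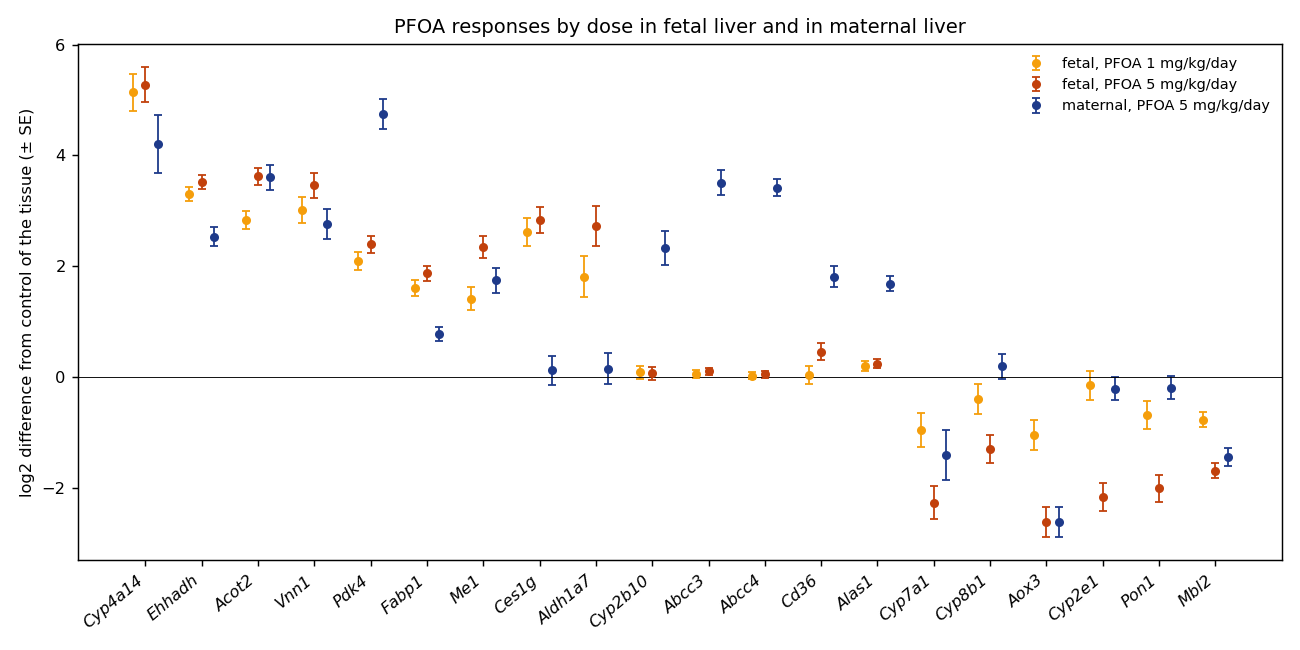
Log2 difference from the control of the same tissue ± SE (vertical axis) for 20 genes in fetal liver at PFOA 1 mg/kg/day and 5 mg/kg/day, which share their 5 control arrays, and in maternal liver at 5 mg/kg/day. The fatty acid genes from Cyp4a14 to Fabp1 are raised in all 3, Cyp2b10, Abcc3, Abcc4, Cd36 and Alas1 passed the test in maternal liver alone, and Cyp2e1 and Pon1 are lowest in fetal liver at 5 mg/kg/day. Maternal values of Abcc3 and Abcc4 run against dam controls below the negative control threshold.

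Xenobiotic responses differed between the tissues in both directions. Of the 18 CAR and PXR targets the effect was higher in the fetus for 4 and lower for 5, against 1.77% and 2.71% of all genes. Cyp3a44 was among those higher in the fetus, by 1.52. Cyp2b10 rose by 2.33 in the dams, and the fetal minus the maternal effect was -2.26 (adjusted p = 0.00042, limma). The same difference was -3.40 for the exporter Abcc3 and -3.37 for Abcc4, both dim in dam controls, where they rose at least 7.15-fold and 5.92-fold. In fetal liver Cyp2b10 and Abcc4 were dim in both groups. Cd36 and Alas1, the first enzyme of haem synthesis, rose by 1.81 and 1.68 in the dams and did not pass the test in the fetus, the effects differing by -1.35 and -1.44. Of the falls, those of Cyp2e1, Pon1 and Cyp8b1 were larger in the fetus, the effects differing by -1.95, -1.82 and -1.49 and the maternal differences being -0.21, -0.19 and 0.19, none of which passed the test. The effects on Aox3 did not differ beyond their error (-2.62 in the fetus and -2.61 in the dam, 95% interval of the difference -0.76 to 0.75), and neither did those on Cyp7a1 (-2.27 and -1.41, interval -2.11 to 0.39). Exposed livers had Aox3 dim in both tissues and Cyp7a1 dim in the fetus, so the sizes of these falls were not measured. For Aox3 they were at least 1.40-fold in the fetus and at least 1.68-fold in the dam, and equal effects cannot be read from them.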

How the data were processed

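RNA of 50 livers was hybridised to Affymetrix whole-transcript arrays. Expression values were used as the authors deposited them, on the log2 scale after RMA, with mm10 as the build per the submitters' processing notes; their versions are not given in the sources used here. Groups follow the titles. Of 32750 annotated probes 1534 naming several genes were left out, and the brightest probe was taken for each of 30743 genes (364 have more than 1). The 11 arrays had a median of 6.02 to 6.14 and 4789 to 5991 genes above their negative controls; their number limits the precision.

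limma 3.58.1 (R 4.3.3) was fitted to the 25 fetal arrays in 5 groups, or for tissue differences to all 50 in 10 groups, with eBayes and Benjamini-Hochberg adjustment, calls being an adjusted p under 0.05. The fit of exposed against control was tested on simulated data. Dams and fetuses were taken as independent, since the labels do not name the pairs. The members and gene lists were chosen with earlier results of these data known. Genes named are the 15 largest rises and 15 largest falls among called genes that do not overlap and are not dim in both groups (predicted genes, small RNAs and receptor segments left out), up to 4 called members of each list by adjusted p (or the member of smallest p where none was called), a set of well-known genes, and the 5 largest rises and falls among the dose and the tissue differences; other members named, and the gene families of the closing section, were chosen after their values were seen. Replicate numbers were not used to pair the arrays in the main fits. Lists are described by counts with no set test. Alternatives were a trend on intensity, weights per array, dim genes left out, probe means, median centring, repeated quantile normalization, a minimum change, fewer groups, a replicate block, source names, and leaving out arrays.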

Additional observations from a re-analysis of the deposited data

Results flagged for a closer look

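The effect of PFOA at 5 mg/kg/day differed between fetal and maternal liver, by the interaction test of the 10-group limma fit, for 44 of the named genes; values are the fetal minus the maternal log2 effect. Among genes whose effect was higher in the fetus were Cyp4a31 (1.53), Ehhadh (0.98), Ces1g (2.72), Abhd6 (1.35), Aldh1a7 (2.57), Fabp1 (1.09), Elovl2 (0.68) and Lrp1 (0.59). The difference was 1.52 for Cyp3a44, a drug-metabolising P450, 2.05 for the sulfotransferase Sult2a8 and 2.21 for Cyp17a1, an enzyme of steroid hormone synthesis, the last 2 dim in both fetal groups. G6pc had 1.87, Mbl1 0.67, Npas2 1.44 and Des 1.15. Sult2a1 (4.81), Sult2a2 (3.92), Cyp4f14 (3.58), Pigr (3.50) and Sult3a1 (3.32) had high positive values; each fell in the dams, to levels dim there on 3 or more of 5 exposed arrays, by 3.46 (Cyp4f14) to 4.20 (Sult2a1), and was dim in both fetal groups.

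Effects were lower in the fetus for Cyp2e1 (-1.95), Pon1 (-1.82), Cpm (-1.52), Cyp8b1 (-1.49), Aqp8 (-1.25), Pdk4 (-2.35), Abcg8 (-1.36), Cyp2a4 (-0.99), Gpt2 (-0.52), Ugp2 (-0.91) and Alas1 (-1.44). The same held for Per2 (-0.37), Cdkn1c (-0.63), Csf1r (-0.69), Cd36 (-1.35), Acadm (-0.87), Cyp2b10 (-2.26), Abcc3 (-3.40) and Abcc4 (-3.37). Values of -4.89 for Cyp4a12a, -4.58 for Cyp4a12b, -3.96 for Fabp3-ps1, -3.57 for Fabp3 and -3.52 for Ly6d rest on dam controls that were all dim, so that neither their sizes nor their order are measured; the last 3 did not pass the test in fetal liver. Fabp3 and its pseudogene may share probes.

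Single arrays stood apart from the rest of their group by Dixon's criterion in 14 of 264 sets of values, close to the share of about 1 in 20 that chance alone flags. In the control group these were replicate 4 for Aldh1a7 (7.04) and Hsd17b7 (8.72), replicate 3 for Cyp7a1 (8.78) and Abcc4 (6.49), replicate 1 for Fkbp11 (9.75) and replicate 2 for Nr1i2 (7.52). In the exposed group they were replicate 1 for Aldh1a7 (8.10), Cyp3a44 (8.59) and Ly6d (8.70), replicate 3 for Cdkn1c (9.07), Cyp2b10 (5.65), Abcc3 (7.71) and Abcc4 (6.92), and replicate 2 for Sult3a1 (3.21).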

How the results depend on the processing

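No alternative reversed a named gene, and 78 of the 107 named genes that passed the test kept their call under every alternative in which they were tested, the other 29 losing it at least once. The minimum change of 1.2-fold was not among the alternatives checked for named genes. The count of 1042 genes stayed within 1.5 times under each alternative except a minimum change of 1.2-fold (197), and ranged from 777 to 1149 when 1 array was left out (626 genes passed in all 11 of those fits); array weights gave 1432, a filter on dim genes 757, and source names followed 880. With only the control and PFOA 5 mg/kg/day arrays fitted the count was 760. The replicate number as a block, in which exposed replicate 6 has no partner, gave 855 for this count, 14 for the dose count and 1137 for the tissue count. Same-numbered control and exposed arrays deviated together at r = -0.20 to 0.24, and so few correlations cannot decide whether the numbers pair them. Rises were 68.9% of calls, 73.6% after median centring and 61.6% after quantile normalization. The dose count of 15 was 54 with array weights and 5 to 25 when 1 array was left out. The tissue count of 1376 was 2891 with array weights, 795 with the filter on dim genes (fewer genes tested) and 1046 to 1472 when 1 array was left out; the causes of the other shifts were not tested. Signal over background limits the folds of the 23926 genes dim in both groups. Leaving out exposed replicate 6 and control replicate 3 together was chosen after seeing the data.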

Other observations

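Gene families not described above, chosen after their values were seen, also split by member. Of 17 measured carboxylesterases, which hydrolyse lipid and drug esters, 4 rose and 2 fell (35.3%, against 3.39% of all genes). Ces1d rose by 1.89 and Ces1e, dim in controls, by 1.40 in fetal liver beside Ces1g, against 0.39 and 0.50 in the dams, while Ces1c fell by 1.62 and Ces1b by 0.57, both dim in both groups. Of 17 aldehyde dehydrogenases 5 rose and none fell (29.4%), Aldh1a1, which makes retinoic acid and was dim in controls, by 1.56, and Aldh9a1, of carnitine synthesis, by 1.05. Among 14 acyltransferases of membrane phospholipids 5 rose and none fell (35.7%), Gpat4 by 0.86 and Gpat3, dim in controls, by 0.70. The glycerol channel Aqp3 rose by 1.90, from dim levels in controls to 9.24 ± 0.26 (SD, n = 6), at least 2.54-fold.

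Of 14 measured genes listed for glycine, sarcosine and one-carbon catabolism 5 fell and 1 rose (42.9%, against 3.39% of all genes). The rise was that of Amt, dim in controls, by 0.37, and Gldc did not pass the test (-0.01). Gnmt, which methylates glycine, fell by 0.70, Sardh and Pipox, which oxidise sarcosine, by 0.54 and 0.60, and Cdo1, the cysteine dioxygenase, by 0.74. None of these 4 genes overlapped between groups. At 1 mg/kg/day their differences from the same controls were -0.34, -0.17, -0.33 and -0.32. Pon3, dim in exposed livers, fell by 0.53 (at least 1.23-fold), beside the fall of Pon1.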
